A study of Mus musculus with 9 samples.

Results

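The genes of the proteasome were followed through RNA-seq of 9 mouse lymphomas. Of the 41128 rows of the count table, 45 carried a symbol of the Psma, Psmb, Psmc, Psmd or Psme series and were not marked as pseudogenes. Psmb8 and Psmb9, the interferon-induced catalytic subunits, were set aside and are given only for comparison. Of the 43 rows that were left, 41 had a mean of at least 10 counts over the tumors, 16 of them core genes (Psma and Psmb) and 25 regulatory genes (Psmc, Psmd and Psme). Psmb11, a subunit made in thymic epithelium, had 0 counts in all tumors and Psme2b had 4 counts in all, whereas Psma8, the lowest gene kept, had a mean of 14.1 counts and Psmd10, the next, had 197. No other measured value entered the rule. Psmc3ip shares the symbol of the ATPase Psmc3 but encodes a recombination factor, so it fits the naming rule without being a proteasome subunit.

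Both genotypes carried IµBcl6, an allele that keeps the transcription factor Bcl6 switched on in B cells, and Cγ1-Cre, which acts in B cells that have entered the germinal center. Bcl6 tumors (n = 3) had both alleles of Smc3, which encodes a subunit of the cohesin ring (Smc3 wt/wt), and Smc3/Bcl6 tumors (n = 6) had lost 1 of the 2 (Smc3 wt/-). One library was made per tumor from lymph node tissue, and of each genotype only replicate 1 is labelled as mesenteric. Total counts per tumor lay between 10156728 and 17774577. The age of the mice is not given in the labels, and nothing in them says how the tumors were bred or collected together, so p-values measure the spread between these tumors.

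The proteasome degrades proteins tagged with ubiquitin. Its core is a barrel of 4 stacked rings, with alpha subunits (Psma) in the outer rings and beta subunits (Psmb) in the inner rings, where 3 kinds of beta subunit carry the proteolytic sites. The regulatory particle that caps the barrel has a base, with a ring of 6 ATPases (Psmc) and large scaffold subunits, and a lid that holds the deubiquitinase Psmd14. The Psme proteins are other caps that open the barrel without the ATPases. B cells and T cells also make the inducible catalytic subunits Psmb8, Psmb9 and Psmb10, which replace the constitutive ones and alter the peptides offered to T cells.

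Smc3 itself had 126, 99.5 and 88.1 CPM (library-size-scaled counts, with TMM factors) in Bcl6 tumors 1 to 3. In Smc3/Bcl6 tumors 1 to 6 it had 107, 27.9, 105, 89.7, 111 and 108 CPM, so that tumor 2 stood below the other 8 tumors and the rest of the Smc3/Bcl6 tumors lay within the range of the Bcl6 tumors. The principal transcript of Smc3 is long (4851 bases), and long transcripts tended to be lower in tumor 2, as described below. Relative to the mean of the other 8 tumors, Smc3 in tumor 2 stood at -1.885 (log2), and at -1.251 after a correction for exon length and GC content. The fitted difference was -0.19 on the log2 scale (standard error 0.38), and these gene totals do not show whether the deleted exon was missing. The 5 B-cell markers given here (Cd79a, Cd79b, Ms4a1, Pax5 and Cd22) were detected in every tumor, with summed levels of 2073 to 6220.0 CPM in Bcl6 and 3412 to 7718 CPM in Smc3/Bcl6 tumors. Markers of other cells varied more widely. The 5 T-cell markers summed to between 87.1 and 1434 CPM in Bcl6 and between 24.1 and 1552 CPM in Smc3/Bcl6 tumors, the 5 macrophage markers to between 255 and 1909 CPM and between 132 and 2157 CPM, the 5 plasma cell markers to between 1267 and 1581 CPM and between 687 and 3752 CPM, 3 erythroid markers to between 30.1 and 1127 CPM and between 90.3 and 9256 CPM, and the 4 neutrophil markers to between 14.3 and 1129 CPM and between 8.13 and 457 CPM. The 5 germinal center B-cell markers summed to between 298 and 753 CPM in Bcl6 and between 254 and 710.3 CPM in Smc3/Bcl6 tumors. Of the marker genes given here, Top2a and Elane were called lower in Smc3/Bcl6 tumors, in a fit that called 0.868% of all genes lower. Elane had 75.2 CPM in Bcl6 tumor 3, 0.529 and 0.486 CPM in the other Bcl6 tumors and at most 4.27 CPM in Smc3/Bcl6 tumors. With same-numbered tumors as pairs in a replicate block, Elane was not called (log2 fold change -0.32, edgeR unadjusted p of 0.896), whereas Top2a, Mki67, Cd3e, Csf1r and Emr1 were called lower. That fit called 1.90% of all genes lower. In these bulk libraries, fewer cells of a type and less RNA per cell cannot be told apart.

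The first question was whether losing an Smc3 allele went along with a change in proteasome genes. No proteasome gene passed the thresholds in either direction (edgeR's quasi-likelihood test, both an unadjusted p below 0.1 and a log2 fold change beyond 0.56 in either direction), and all 41 were tested. Among the 14057 genes tested, 1.28% were called higher and 0.868% lower in Smc3/Bcl6 tumors. An unadjusted p below 0.05 was found for 0 of the 41 proteasome genes and for 0.562% of all genes, and an adjusted p below 0.05 for 0 of the 41 and for 0.00% of all genes. By limma with a weight per tumor, 2 of the 41 had an unadjusted p below 0.05, as did 8.33% of all genes, and by DESeq2 0 of the 41 and 1.49% of all genes did. With 0.484% of all genes at levels that did not overlap between the genotypes, 0 of the 41 proteasome genes had such levels.

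**Figure D1:**
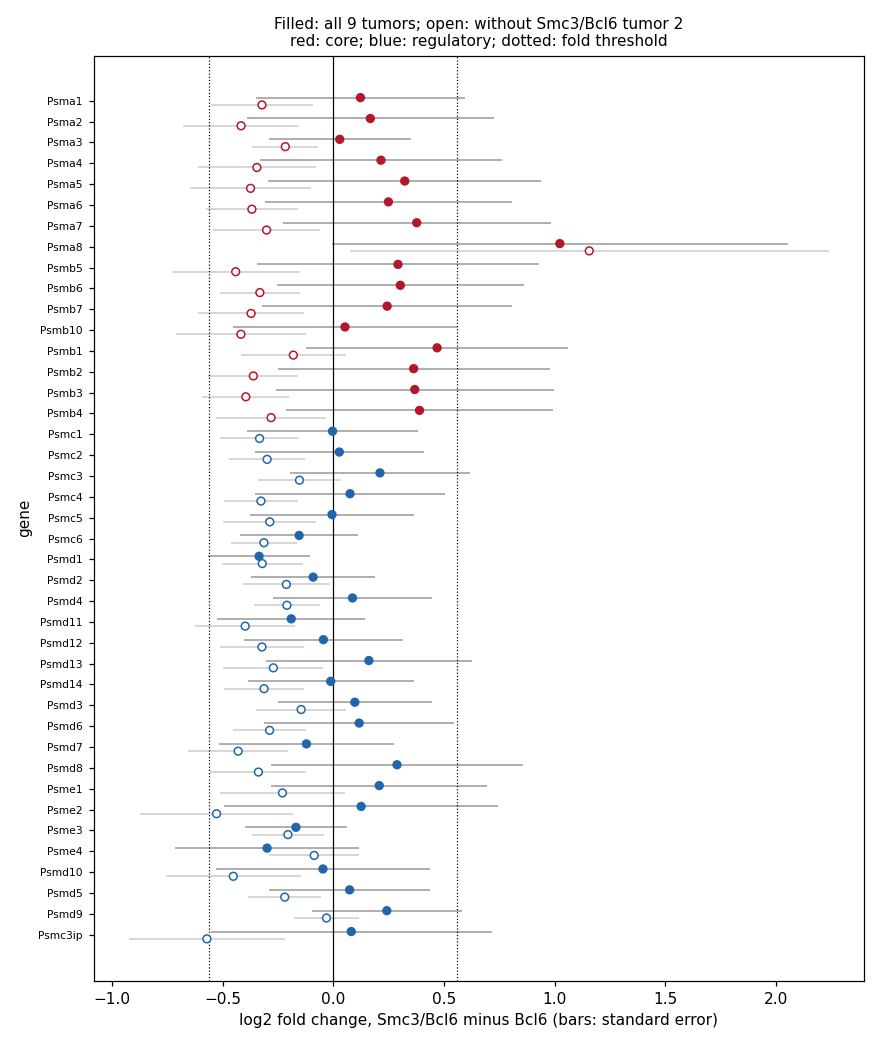
Log2 fold change (Smc3/Bcl6 minus Bcl6, horizontal axis) of the 41 genes (vertical axis) with standard errors, for all 9 tumors (filled) and without Smc3/Bcl6 tumor 2 (open); red marks core and blue regulatory genes. With all 9 tumors 29 genes lie to the right of 0 and 12 to the left, and without that tumor 40 of the 41 lie to the left.

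The proteasome genes had a median log2 fold change of 0.12, and the median of all genes tested was 0.06. The 16 core genes had a median of 0.30, with all 16 values above 0 (0.03 to 1.02). The 25 regulatory genes had a median of 0.03, with 13 values above and 12 below 0 (-0.34 to 0.29). Standard errors ran from 0.23 to 1.03, and their median was 0.46 for proteasome genes and 0.46 for all genes. Scaling by total counts in place of TMM moved the median of all genes from 0.06 to -0.04 and that of the proteasome genes to -0.09, with 29 of the 41 then below 0, so the sign for the family depended on the scaling.

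The sign also turned on a single tumor. Without Smc3/Bcl6 tumor 2 the median was -0.32 for proteasome genes and 0.03 for all genes, and 40 of the 41 proteasome genes had a value below 0, the exception being Psma8. None of the 41 passed the thresholds in that comparison, where 2.43% of all genes were called higher and 1.39% lower. The smallest unadjusted p among them was 0.0643, for Psmc6, whose log2 fold change was -0.31. Levels did not overlap between the genotypes for 1 of the 41, the alpha subunit Psma6, and for 1.42% of all genes. Leaving out Smc3/Bcl6 tumors 2 and 4 together gave a median of -0.21 for proteasome genes and 0.00 for all genes, again with 0 of the 41 called, beside 1.88% of all genes called higher and 1.23% called lower. When same-numbered tumors (1 to 3 of each genotype, tumor 2 included) were treated as pairs in a replicate block, the median was 0.33, against 0.47 in the same 6 tumors without the block. Of the 40 genes tested there 0 were called, beside 0.337% of all genes called higher and 1.90% called lower.

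**Figure D2:**
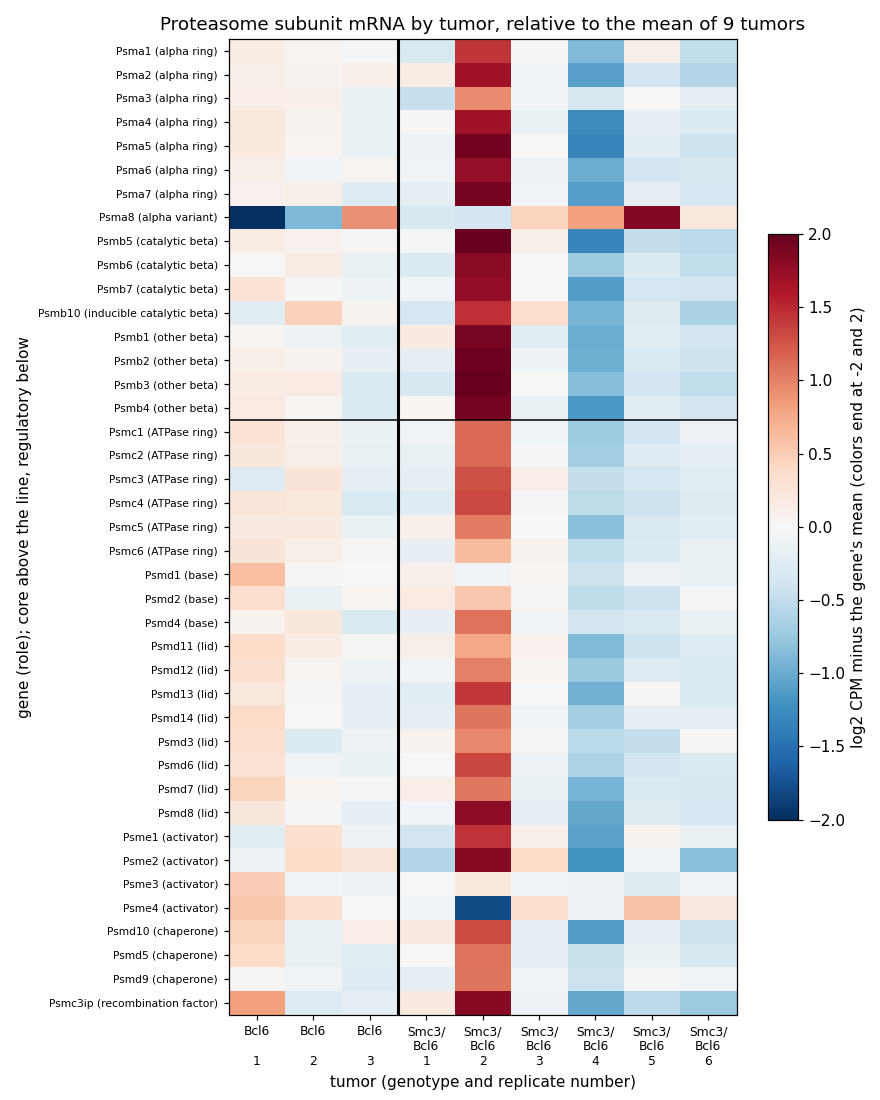
Log2 CPM of each gene minus its mean over the 9 tumors (color), with genes grouped by role in rows and tumors in columns; the thick line parts the genotypes and the thin line the core from the regulatory genes. The column of Smc3/Bcl6 tumor 2 is red for most genes and blue for Psme4, and that of Smc3/Bcl6 tumor 4 is blue for most genes.

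The widest differences lay between individual tumors of 1 genotype, and most proteasome genes shared them. In Smc3/Bcl6 tumor 2, 37 of the 41 had their highest level of the 9 tumors, beside 29.0% of all genes tested. In Smc3/Bcl6 tumor 4, 37 of the 41 had their lowest level, beside 20.7% of all genes. Relative to the mean of the other 8 tumors, the median proteasome gene stood 1.48 higher on the log2 scale in tumor 2, where the median of all genes was -0.09, and it fell by 0.95 in tumor 4, where the median of all genes was 0.01. In the other 7 tumors the same median lay between -0.33 and 0.24. With tumor 2 set aside, Bcl6 tumor 1 held the highest level for 28 of the 41 genes and for 18.8% of all genes. The 5 proliferation genes examined (Mki67, Top2a, Ccnb1, Mcm5 and Pcna) summed to 1383 CPM in Bcl6 tumor 1, the highest sum, and to 359.6 CPM in Smc3/Bcl6 tumor 4, the lowest, with 854 CPM in Smc3/Bcl6 tumor 2 and 543.5 to 852 CPM in the other tumors. The sum in Smc3/Bcl6 tumor 2 mixes opposite directions. Mki67 (53.6 CPM) and Top2a (79.9 CPM) had their lowest level of the 9 there, and Mcm5 (452 CPM) and Pcna (172 CPM) their highest. The 3 erythroid markers summed to 9256 CPM in tumor 4 and to 3518 CPM in tumor 2, the highest sums of the 9. The part of either in the levels of the proteasome genes was not tested.

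As a share of all counts, the 41 genes made up 0.865, 0.857 and 0.720% in Bcl6 tumors 1 to 3. In Smc3/Bcl6 tumors 1 to 6 the share was 0.676, 1.37, 0.788, 0.445, 0.691 and 0.640%. The share was thus highest and lowest within a single genotype, and 95% Wilson intervals, which cover counting error only, reached at most 0.0062 percentage points to either side. The mean was 0.814% ± 0.081 (SD, n = 3) in Bcl6 and 0.768% ± 0.314 (SD, n = 6) in Smc3/Bcl6 tumors, or 0.648% ± 0.126 (SD, n = 5) without tumor 2. The median SD of log2 CPM over the 9 tumors was 0.63 for proteasome genes and 0.63 for all genes, and without tumor 2 it was 0.34 and 0.43.

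Core and regulatory genes were then set against each other within each tumor. The mean log2 CPM of the 16 core genes was 6.86, 6.94 and 6.88 (6.89 ± 0.04, SD, n = 3) in the Bcl6 tumors. In Smc3/Bcl6 tumors 1 to 6 it was 6.78, 8.53, 6.92, 6.03, 6.80 and 6.54 (6.93 ± 0.84, SD, n = 6). The mean of the 25 regulatory genes was 7.38, 7.16 and 7.0 (7.18 ± 0.19, SD, n = 3) in the Bcl6 tumors, and 7.03, 8.08, 7.10, 6.42, 6.88 and 6.87 (7.06 ± 0.55, SD, n = 6) in Smc3/Bcl6 tumors 1 to 6. Both means were highest in tumor 2 and lowest in tumor 4, and the core mean moved further in both tumors.

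The core mean minus the regulatory mean was -0.51, -0.22 and -0.12 in the Bcl6 tumors (-0.28 ± 0.20, SD, n = 3). It was -0.26, 0.45, -0.18, -0.39, -0.07 and -0.33 in Smc3/Bcl6 tumors 1 to 6 (-0.13 ± 0.30, SD, n = 6). The value above 0 in tumor 2 was the only one of the 9, and the values of the other 5 Smc3/Bcl6 tumors lay within the range of the Bcl6 tumors except for the -0.07 of tumor 5. The low end of that range, in Bcl6 tumor 1, includes Psma8 at 0 counts (log2 CPM -2.81), weighed as 1 of the 16 core genes. The genotype means differed by 0.155 (log2), less than the pooled SD within genotypes of 0.28, and by 0.04 without tumor 2. Within the tumors labelled lymph node (2 and 5) the difference was 0.07, and between the 2 labelled mesenteric lymph node it was 0.26. This split rests on the labels alone, since the study's text gives the mesenteric lymph node as the source of all tumors. With the 14 core and 17 regulatory genes that are fixed parts of the particle (without Psma8, Psmb10, the Psme genes, the chaperones and Psmc3ip), the value was -0.29, -0.17 and -0.16 in Bcl6 tumors and -0.23, 0.57, -0.20, -0.50, -0.11 and -0.36 in Smc3/Bcl6 tumors 1 to 6. In this set Smc3/Bcl6 tumors 4 and 6 lay below the Bcl6 range and tumors 2 and 5 above it, and the genotypes differed by 0.07. The core and regulatory means weigh long and short genes by counts, so only their differences between tumors can be read, not whether core exceeds regulatory mRNA within a tumor.

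**Figure D3:**
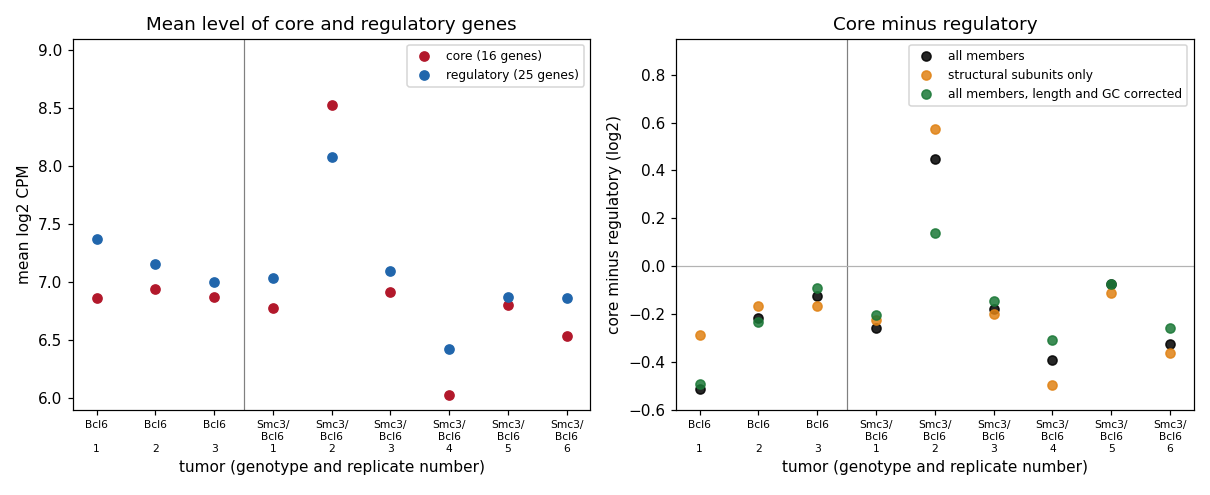
Left, mean log2 CPM of the 16 core and 25 regulatory genes in each tumor; right, core minus regulatory for all genes, for the structural subunits alone and after a length and GC correction (log2). Tumor 2 of the Smc3/Bcl6 genotype is the only tumor above 0 in the right panel, at 0.45, 0.57 and 0.14.

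Core transcripts are short, and transcript length moved with the level in Smc3/Bcl6 tumor 2. The median principal transcript (GENCODE M21) was 1174 bases for core and 1636 bases for regulatory genes. Core genes stood a median of 2.01 above the mean of the other 8 tumors in tumor 2 and regulatory genes a median of 1.22, both on the log2 scale. Across the 41 genes the deviation in tumor 2 had a Spearman correlation of -0.785 with transcript length, and across 12661 tested genes with a length it was -0.585, a description over genes that share 1 library. With exon length, the length used for the correction that follows, the correlations in tumor 2 were -0.533 and -0.466. In tumor 4 they had the opposite sign, at 0.508 across the 41 genes and 0.177 across all genes. Psmb3 (766 bases) stood 2.27 above the other tumors, Psmd1 (3112 bases) stood at -0.08 and Psme4 (6491 bases) at -2.01. Psmd5 (4397 bases) and Psma2 (2911 bases) did not follow this order, at 1.22 and 1.90.

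**Figure D4:**
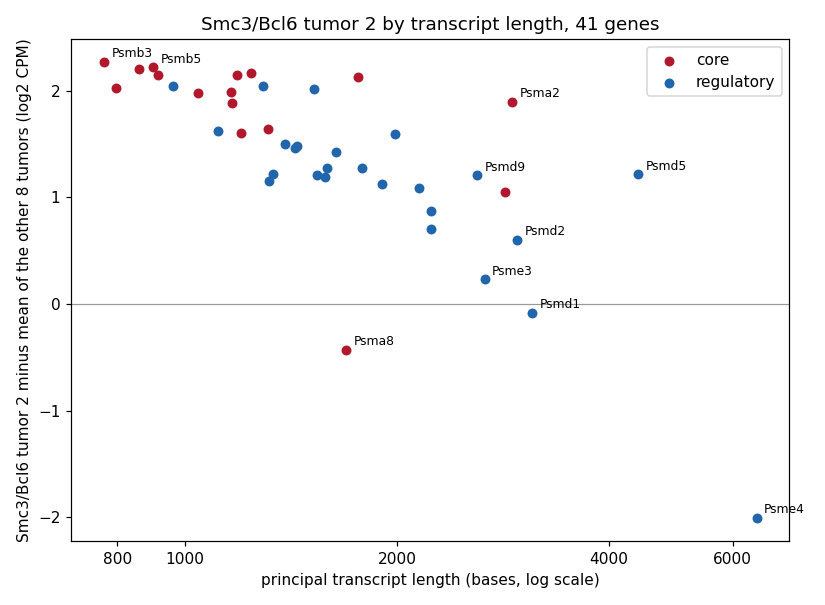
Level in Smc3/Bcl6 tumor 2 minus the mean of the other 8 tumors (log2 CPM, vertical axis) against principal transcript length (bases, log scale) for the 41 genes, core in red and regulatory in blue. Values run from 2.27 for Psmb3 to -2.01 for Psme4, with Psma8 apart at -0.43.

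After a correction for exon length and GC content in each tumor, the median deviation of the proteasome genes in tumor 2 was 1.06, and that of all genes 0.01. Tumor 2 then held the highest level for 36 of the 41 genes and tumor 4 the lowest for 36. The correction used exon length, which had the weaker correlation in tumor 2, and transcript length was not corrected for. With it, Psmb1 moved from 2.129 to 2.415 above the other tumors in tumor 2, while the median of the proteasome genes fell from 1.48. Core minus regulatory in tumor 2 was 0.14 after the correction, and -0.49 to -0.07 in the other 8 tumors. With the structural subunits alone it was 0.30 in tumor 2 and -0.42 to -0.12 in the other 8. In the comparison of genotypes the same correction gave a median log2 fold change of -0.01 for the proteasome genes, 21 of them below 0, and 0.07 for all genes.

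The 7 alpha subunits Psma1 to Psma7 form the outer rings that gate the barrel. Their log2 fold changes lay between 0.03 (Psma3) and 0.38 (Psma7), and between -0.42 and -0.22 without tumor 2. Psma3 had 74.0, 72.3 and 61.5 CPM in the Bcl6 tumors and 48.8 to 67.5 CPM in the Smc3/Bcl6 tumors other than tumor 2, where it had 129.5 CPM. Psma7 had 399, 405 and 312.5 CPM in the Bcl6 tumors, 1407 CPM in tumor 2 and 174 to 362 CPM in the other Smc3/Bcl6 tumors. The genotypes overlapped for both.

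Psma8, the testis form of Psma7, had the largest fold change and the fewest counts. It had 0, 0.324 and 1.51 CPM in the Bcl6 tumors, where 0 counts allow up to 0.265 CPM (3 counts) in tumor 1. In the Smc3/Bcl6 tumors it had 0.529 to 3.00 CPM, with the highest value in tumor 5. Its log2 fold change was 1.02 (standard error 1.03, unadjusted p of 0.344 by edgeR). It passed the thresholds without Bcl6 tumor 3, at 2.76, where 226 of 14594 genes were called higher. With limma it passed them at 1.52, where 4.57% of all genes were called higher. Its 127 counts over 9 tumors limit what can be said of it.

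The 3 constitutive catalytic subunits are Psmb5 (chymotrypsin-like), Psmb6 (caspase-like) and Psmb7 (trypsin-like). Psmb5 (ENSMUSG00000022193.6, GRCm38 chromosome 14, 54614119 to 54618022) had 66.4, 63.3 and 61.0 CPM in the Bcl6 tumors, 235 CPM in Smc3/Bcl6 tumor 2 and 23.8 to 64.8 CPM in the other Smc3/Bcl6 tumors. Psmb6 (ENSMUSG00000018286.6, chromosome 11, 70525367 to 70527858) had 258, 285 and 233 CPM, 897 CPM and 155 to 257 CPM in the same order. Psmb7 (ENSMUSG00000026750.5, chromosome 2, 38588036 to 38644087) had 119, 95.9 and 92.0 CPM, 336 CPM and 45.1 to 98.0 CPM. Each was above all other tumors in tumor 2, and the other Smc3/Bcl6 tumors reached from below the Bcl6 tumors into their range. The log2 fold changes were 0.29, 0.30 and 0.24 (standard errors 0.64, 0.56 and 0.57), and -0.44, -0.33 and -0.37 without tumor 2. Exons of Psmb7 overlap Nek6 on the opposite strand, as those of Psmc3, Psmd13 and Psme1 overlap Slc39a13, Sirt3 and Emc9, and the sources used here do not give whether reads were counted by strand.

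Psmb10, which takes the place of Psmb7 in the inducible particle, had 166, 262 and 201 CPM in the Bcl6 tumors, 525 CPM in tumor 2 and 101 to 243 CPM in the other Smc3/Bcl6 tumors. Psmb8, the inducible counterpart of Psmb5, had 640.4, 947 and 717 CPM in the Bcl6 tumors, 2591 CPM in tumor 2 and 352 to 833.5 CPM in the other Smc3/Bcl6 tumors. Psmb9, the counterpart of Psmb6, had 536, 699.5 and 556.5 CPM, 1907 CPM and 290.3 to 790.5 CPM. These overlapped between genotypes in the same manner, with log2 fold changes of 0.05, 0.40 and 0.41 (standard errors 0.51, 0.55 and 0.52). The mean log2 CPM of the 3 inducible minus that of the 3 constitutive genes was 1.599, 2.22 and 1.98 in the Bcl6 tumors (1.93 ± 0.31, SD, n = 3) and 2.12, 1.73, 2.00, 1.98, 2.34 and 2.11 in Smc3/Bcl6 tumors 1 to 6 (2.05 ± 0.20, SD, n = 6). This balance thus differed by less than its spread within the Bcl6 tumors. Tumor 2 was the lowest of the Smc3/Bcl6 tumors in it, at 1.73 beside 1.98 to 2.34, but lay within the Bcl6 range of 1.599 to 2.22. Tumor 4, which like tumor 2 stood apart in level, was at 1.98. Limma with a weight per tumor called Psmb10 lower, at a log2 fold change of -0.60, with an unadjusted p of 0.0453, in a fit that called 7.13% of all genes lower.

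**Figure D5:**
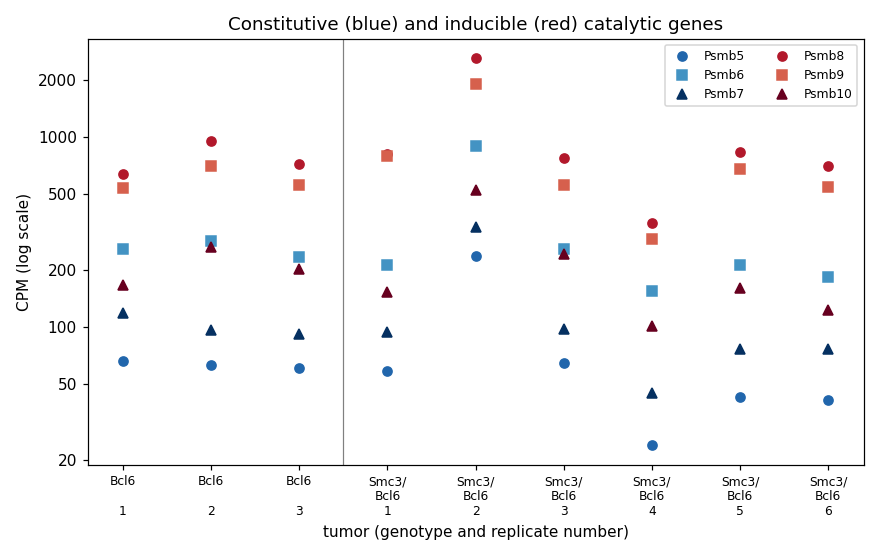
CPM (log scale) of the constitutive (blue) and inducible (red) catalytic genes in each of the 9 tumors. All 6 genes are highest in Smc3/Bcl6 tumor 2 and lowest in tumor 4, and Psmb8 runs from 352 to 2591 CPM within the Smc3/Bcl6 tumors.

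Per kilobase, Psmb6 was the highest of the constitutive catalytic genes with either measure of length. Its median over the tumors was 125 CPM per kilobase of exon sequence and 292 CPM per kilobase of principal transcript. Psmb5 had 67.8 by both, and Psmb7 had 27.6 and 81.4, so that the order of these 2 depended on the length used. Psmb10 had 97.2 and 126 CPM per kilobase. Among the other genes, Psmb2 stood high by both measures (243 and 341) and Psma8 lowest (0.347 and 0.512).

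Proteasome genes are known targets of the transcription factors Nfe2l1 and Nfe2l2, which bind antioxidant response elements with the core TGACNNNGC, and many housekeeping promoters hold a CCAAT box. Promoter windows (RefSeq, GRCm38.p6, from 250 bases before to 50 after the start) were found for 34 of the 41 genes and searched on both strands. TGACNNNGC occurred in 6 of the 34 (17.6%), namely Psmb5, Psmb6, Psmc6, Psmd12, Psmd9 and Psme4, and in 14.0% of the 27025 genes of the table. CCAAT occurred in 13 of the 34 (38.2%) and in 41.1% of all genes. Stretches around the first match type are shown for 2 catalytic, 1 ATPase and 1 lid gene. These genes were highest in Smc3/Bcl6 tumor 2, as were 37 of the 41 genes, whereas Psme4, also with a match, was lowest there. The stretches are written 5′ to 3′ on the strand of the gene with the match, or its reverse complement, in capitals. Psmb5 lies on the minus strand and the stretch spans chr14:54618004-54618072, and the others lie on the plus strand, at chr11:70525318-70525356 for Psmb6, chr14:45329574-45329635 for Psmc6 and chr11:107479278-107479319 for Psmd12.
Psmb5: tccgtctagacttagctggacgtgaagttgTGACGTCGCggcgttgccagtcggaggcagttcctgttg
Psmb6: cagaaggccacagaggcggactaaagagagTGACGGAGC
Psmc6: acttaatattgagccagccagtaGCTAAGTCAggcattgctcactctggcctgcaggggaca
Psmd12: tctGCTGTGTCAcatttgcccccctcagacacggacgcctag
The matches end 38 bases before the start of Psmb5 and directly at that of Psmb6, and lie 218 and 238 bases before those of Psmc6 and Psmd12. A match is a string of letters in a window and not a measured site.

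The other 4 beta subunits, Psmb1 to Psmb4, are built into the inner rings without a proteolytic site. Their log2 fold changes lay between 0.36 and 0.47 and between -0.40 and -0.18 without tumor 2. Psmb1 had 337, 300.9 and 278 CPM in the Bcl6 tumors, 1201 CPM in tumor 2 and 162.5 to 366 CPM in the other Smc3/Bcl6 tumors (0.47 on the log2 scale, standard error 0.59, unadjusted p of 0.446). Psmb4 had 189, 175 and 138 CPM in the Bcl6 tumors, 635 CPM in tumor 2 and 76.3 to 173 CPM in the others (0.39, standard error 0.60, unadjusted p of 0.533). The genotypes overlapped for both.

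The 6 ATPases Psmc1 to Psmc6 unfold substrates and thread them into the barrel. They had log2 fold changes between -0.15 (Psmc6) and 0.21 (Psmc3), 3 above and 3 below 0, and stood 0.71 to 1.48 above the other tumors in tumor 2. Psmc6 had 131, 118.5 and 111 CPM in the Bcl6 tumors, 169 CPM in tumor 2 and 77.4 to 115 CPM in the other Smc3/Bcl6 tumors, and was among the least variable genes (SD of log2 CPM 0.33 over 9 tumors). All 6 were below 0 without tumor 2, at -0.33 to -0.15.

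In the base, Psmd2 and Psmd4 bind ubiquitin or its carriers and Psmd1 is a scaffold. Psmd1 had the smallest unadjusted p of the 41 genes. It had 375, 251 and 248.5 CPM in the Bcl6 tumors and 183 to 264.5 CPM in the Smc3/Bcl6 tumors, tumor 2 being within this range at 235 CPM. Its level was highest in Bcl6 tumor 1, and the other 2 Bcl6 tumors lay among the Smc3/Bcl6 tumors. The log2 difference was -0.34 (standard error 0.23, unadjusted p of 0.178, adjusted p = 1 by edgeR's quasi-likelihood test), and it was -0.32 without tumor 2. Psmd2 had 407, 293.5 and 329.9 CPM in the Bcl6 tumors and 225 to 466.5 CPM in the Smc3/Bcl6 tumors, with a log2 fold change of -0.09. Psmd4 had 212, 236 and 164 CPM in the Bcl6 tumors, 427.5 CPM in tumor 2 and 154 to 192 CPM in the others (0.09). Adrm1, a ubiquitin receptor outside the naming rule, had 38.9, 35.3 and 24.2 CPM in the Bcl6 tumors and 27.6 to 48.6 CPM in the Smc3/Bcl6 tumors (0.08, standard error 0.27).

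The lid has 8 genes here, Psmd3, Psmd6 to Psmd8 and Psmd11 to Psmd14, with log2 fold changes between -0.19 (Psmd11) and 0.29 (Psmd8), 4 above and 4 below 0. Psmd14, which cuts ubiquitin chains from the substrate, had 304.5, 237 and 208.5 CPM in the Bcl6 tumors, 494.5 CPM in tumor 2 and 145 to 225 CPM in the other Smc3/Bcl6 tumors. The log2 difference between genotypes was -0.01 (standard error 0.38). All 8 lid genes were highest in tumor 2 and lowest in tumor 4, and all 8 were below 0 without tumor 2, at -0.43 to -0.15.

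The Psme activators followed different patterns. Psme1 and Psme2, interferon-induced genes that form a joint cap, were highest in tumor 2 and lowest in tumor 4. Psme1 had 289.9, 427 and 312 CPM in the Bcl6 tumors, 925.5 CPM in tumor 2 and 162 to 362.5 CPM in the others (log2 fold change 0.21). Psme2 had 129, 179.7 and 164 CPM in the Bcl6 tumors and 92.3, 489, 182, 60.8, 130.3 and 77.6 CPM in Smc3/Bcl6 tumors 1 to 6 (0.13, standard error 0.62). Limma with a weight per tumor called it lower, at -0.71 with an unadjusted p of 0.0417, in a fit that called 7.13% of all genes lower. The T-cell markers summed to 87.1, 1434 and 1170 CPM in the Bcl6 tumors and to 24.1, 1552, 1362, 74.1, 469 and 56.6 CPM in Smc3/Bcl6 tumors 1 to 6. The 5 tumors with the highest Psme2 were thus the 5 with the highest T-cell sum, and the part of T cells in Psme2 was not tested.

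Psme3, a nuclear activator, had 447, 300.8 and 292 CPM in the Bcl6 tumors, 366 CPM in tumor 2 and 269 to 318 CPM in the other Smc3/Bcl6 tumors, and its SD of log2 CPM over 9 tumors, 0.22, was the lowest of the 41 genes. Its log2 fold change was -0.17 (standard error 0.23). Psme4, which encodes the large nuclear activator PA200, was the only gene of the 41 with its lowest level in tumor 2. It had 60.6, 51.8 and 41.1 CPM in the Bcl6 tumors, 11.85 CPM in tumor 2 and 38.0 to 61.7 CPM in the other Smc3/Bcl6 tumors. Its fitted difference was -0.30 (log2, standard error 0.42) and -0.09 without tumor 2, and -0.81 with the replicate block. The mean of Psme1 and Psme2 minus Psme3 was -1.21, -0.12 and -0.37 (log2) in the Bcl6 tumors and ran from -1.55 in tumor 4 to 0.88 in tumor 2 in the Smc3/Bcl6 tumors, so that the spread lay within the genotype.

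Psmd5, Psmd9 and Psmd10 are chaperones that help to assemble the base and leave the finished particle. Psmd5 had 167, 117 and 111 CPM in the Bcl6 tumors, 274 CPM in tumor 2 and 95.04 to 129.6 CPM in the others (log2 fold change 0.07). Psmd9 had 41.7, 39.0 and 34.3 CPM, 86.6 CPM and 30.6 to 40.6 CPM (0.24, unadjusted p of 0.492), and without tumor 2 its SD of 0.15 was the lowest of the 41 genes. Psmd10 had 18.7, 12.5 and 15.03 CPM, 33.9 CPM and 6.19 to 15.5 CPM (-0.05). All 3 were highest in tumor 2 and lowest in tumor 4. Psmc3ip, the recombination factor, had 26.9, 12.7 and 13.4 CPM in the Bcl6 tumors, 53.9 CPM in tumor 2 and 7.39 to 17.3 CPM in the others (0.08). This gene, without a place in the particle, was thus also highest in tumor 2 and lowest in tumor 4.

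Genes that act with the proteasome were examined as lists. The comparison of all 9 tumors called 1.28% of all genes higher and 0.868% lower, so 0 calls in lists this short say little. Smc3/Bcl6 tumor 2 held the highest level for 29.0% of all genes and the lowest for 31.2%. Of 7 assembly factors (with the inhibitor Psmf1) 0 were called in either direction, with a median log2 fold change of 0.21. Of these, 6 were highest in tumor 2, among them Pomp, the maturation factor of the core, with 218, 205 and 186 CPM in the Bcl6 tumors, 626 CPM in tumor 2 and 87.5 to 206 CPM in the others. AI314180, a factor with a long principal transcript (7045 bases), was lowest in tumor 2, at 32.0 CPM against 89.9 to 135 CPM in the other 8 tumors. Of 11 associated factors, which include Usp14 and Uchl5, deubiquitinases of the regulatory particle, 0 were called (median -0.12), and 3 were highest and 4 lowest in tumor 2. Of 10 genes of the Nfe2l1 pathway 0 were called (median -0.05). Nfe2l1 itself (4407.5 bases) had 131, 90.5 and 129 CPM in the Bcl6 tumors, 56.4 CPM in tumor 2 and 111 to 181 CPM in the others. Its level was thus lowest in tumor 2, where long transcripts tended to be lower. Nfe2l2 (2475 bases) had 87.8, 115.6 and 135.1 CPM in the Bcl6 tumors, 70.2 CPM in tumor 2 and 45.6 to 165.6 CPM in the others. The part of either factor in the levels of the proteasome genes was not tested. Of 6 ubiquitin and E1 genes 0 were called (median 0.09), and of the 7 interferon-regulated presentation genes, Psmb8 and Psmb9 among them, 0 were called (median -0.07). The summed CPM of this last list was lowest in tumor 4, at 1955, and highest in tumor 2, at 6548.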

How the data were processed

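RNA-seq counts of 3 Bcl6 and 6 Smc3/Bcl6 mouse lymphomas were used. The authors ran nf-core/rnaseq, aligned reads with STAR to mm10 with Gencode M12 and deposited raw featureCounts counts per gene, and the submitters' processing notes also name R 4.0.2 and DESeq2 1.28.1. The strand setting is not given in the sources used here. The table held 0 columns without a sample. The closest tumors of 1 genotype differed by more than sampling noise (chi-square per degree of freedom 65.0). The genes and lists were chosen with earlier results of these data known. Of the gene identifiers 97.9% were in GENCODE M21 (GRCm38, the mm10 build), which gave positions and lengths.

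All genes were fitted with edgeR 4.0.16 in R 4.3.3 (TMM, edgeR's filter by genotype, quasi-likelihood test, Benjamini-Hochberg over 14057 genes), tested on simulated data. Log2 CPM used a prior count of 2, and the length and GC correction a lowess span of 0.3 per tumor. Genes with values in every tumor were the catalytic genes, activators, Psmd14, ubiquitin receptors and chaperones, the 4 smallest p in each direction, and the 3 largest and 3 smallest SDs. Alternatives were DESeq2 1.42.0, limma 3.58.1, scalings, filters, covariates and left-out tumors. Deviations from the genotype mean correlated over genes between tumors of the same number at 0.443, 0.113 and 0.155. On this basis the replicate block treated the numbers as pairs, though the labels do not say that they are. Tumors of different numbers were not compared in this way. The highest value was that of number 1, the only number labelled mesenteric in both genotypes, so pairing by number is not established. No split into batches is given in the labels. Some marker genes of the lists of other cell types and B cells are not reported here.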

Additional observations from a re-analysis of the deposited data

Results flagged for a closer look

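Of 30 measures of the named genes and scores examined over the 6 Smc3/Bcl6 tumors, 10 had a tumor far from the others. For independent measures, chance would give about 1 in 20 (1.5 of 30). These measures share genes and libraries, and some genes were named for their SD, so the counts cannot be compared. Tumor 2 was the tumor far from the others in all 10. Over all genes tested, tumor 2 held the highest level of the 9 tumors for 29.0% and the lowest for 31.2%. The gap to the nearest tumor divided by the whole range was 0.713 for Psmb6, 0.643 for Psmd14, 0.786 for Psmd4, 0.707 for Psmd5 and 0.729 for Psmd9, each highest in tumor 2. It was 0.706 for Psme4 and 0.847 for Smc3, both lowest in tumor 2. It was 0.644 for the core mean, 0.641 for core minus regulatory over the structural subunits and 0.628 for the share of all counts, each highest in tumor 2. The TMM factor of this library was 0.693, against 0.964 to 1.10 in the other 8, and its weight in limma was 0.125, the lowest of the 9.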

How the results depend on the processing

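No alternative gave a proteasome gene with an adjusted p below 0.05. Limma with a weight per tumor called 1 gene higher (Psma8) and 2 lower (Psmb10, Psme2), with 642 and 1002 of all genes called. Leaving out each tumor gave 0 to 1 higher (Psma8, without Bcl6 tumor 3, where 226 of 14594 genes were called higher) and 0 lower. The other alternatives gave 0. Total counts as scaling, the 6 tumors unpaired and the omission of Smc3/Bcl6 tumors 2 and 4, were added after the data were seen, as were levels per length of the principal transcript. The median log2 fold change of the proteasome genes was 0.12, between -0.32 and 0.22 with a tumor left out, -0.27 with limma, 0.16 with DESeq2 and 0.33 with the replicate block. The difference in core minus regulatory was 0.155 and lay between 0.04 and 0.23 with a tumor left out. It was 0.07 with structural subunits, and 0.29 in the tumors of the replicate block (1 to 3 of each genotype). Pairing does not alter this last value, which differs from 0.155 through the tumors used. The replicate block changed no call of a proteasome gene. Fits without 1 Bcl6 tumor rest on 2 of them.

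Small fold changes changed sign, none of them called in the main comparison, and the cause was not tested. With limma these were Adrm1 at -0.075, Psmb1 at -0.13, Psmb4 at -0.23, Psmb5 at -0.44, Psmb6 at -0.36, Psmb7 at -0.27, Psmb8 at -0.18, Psmb9 at -0.11, Psmb10 at -0.60, Psmd4 at -0.22, Psmd5 at -0.11, Psme1 at -0.27, Psme2 at -0.71 and Smc3 at 0.058. With total counts they were Adrm1 at -0.048, Psmb7 at -0.011, Psmb10 at -0.17, Psmd4 at -0.10, Psmd5 at -0.11, Psme1 at -0.0098 and Psme2 at -0.14. With the tissue label they were Psmb10 at -0.038, Psmd10 at 0.0066, Psmd14 at 0.0024 and Psme2 at -0.032. With the length and GC offset they were Psmb5 at -0.13, Psmb6 at -0.010, Psmb10 at -0.24, Psmd4 at -0.046, Psmd14 at 0.018, Psme1 at -0.021 and Psme2 at -0.20. With the replicate block they were Psmc6 at 0.013, Psmd2 at 0.12, Psmd10 at 0.24 and Psmd14 at 0.17, and with the block and the offset Psmc6 at 0.11, Psmd1 at 0.039, Psmd2 at 0.13, Psmd10 at 0.064 and Psmd14 at 0.21. In the same 6 tumors unpaired they were Psmc6 at 0.045, Psmd2 at 0.13, Psmd10 at 0.36 and Psmd14 at 0.27. Psmd14 was at 0.031 with DESeq2, 0.031 with RLE and 0.00037 with upper quartile scaling.

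With a tumor left out, the range was -0.10 to 0.16 for Adrm1, -0.18 to 0.60 for Psmb1, -0.28 to 0.53 for Psmb4, -0.44 to 0.43 for Psmb5, -0.33 to 0.42 for Psmb6, -0.37 to 0.38 for Psmb7, -0.13 to 0.53 for Psmb8, -0.053 to 0.54 for Psmb9 and -0.42 to 0.19 for Psmb10. It was -0.45 to 0.083 for Psmd10, -0.31 to 0.083 for Psmd14, -0.21 to 0.18 for Psmd4, -0.22 to 0.20 for Psmd5, -0.031 to 0.31 for Psmd9, -0.23 to 0.35 for Psme1, -0.53 to 0.28 for Psme2 and -0.30 to 0.013 for Smc3.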
